A study of Drosophila melanogaster with 11 samples.

Results

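The mitochondrial ribosomal protein genes were taken as the rows of the *Drosophila melanogaster* gene table whose name starts with mRpL or mRpS, which gave 73 of 14595 genes, 47 named for the large and 26 for the small subunit. Their exons were split by the study into 209 of the 75196 counting bins, 133 in large and 76 in small subunit genes. Messenger RNA was sequenced from 11 libraries of sorted midgut progenitors, and the purpose of the study was to find what the RNA-binding protein Spen changes in intestinal stem cells (ISCs) and in enteroblasts (EBs), their Notch-active daughters. All flies were females aged 5 days that carried *esg*>GAL4, *tub*GAL80.ts, UAS-RFP and nre-GFP, so that RFP marked both progenitor types and the Notch reporter marked EBs. A shift from 18°C to 29°C for 2 days released the driver. WT-ISC (3 libraries) and WT-EB (2 libraries) carried no further transgene, whereas SPEN-ISC (3 libraries) and SPEN-EB (3 libraries) also carried UAS-*spen* RNAi, driven by *esg*>GAL4 in both cell types. ISCs were the diploid RFP-positive fraction and EBs the diploid fraction positive for RFP and GFP, from whole dissociated intestines. A second WT-EB library was left out by the study after a principal component analysis.

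Mitochondrial ribosomes translate the few messages of the mitochondrial genome, which in animals encode core subunits of the respiratory chain and of ATP synthase. Their ribosomal RNAs are made in the organelle, but all of their proteins are encoded in the nucleus, made in the cytoplasm and imported. Some of these proteins have bacterial counterparts and others are found only in mitochondria. In the gene table, 28 large and 14 small subunit genes had a number that bacteria also use, and 19 large and 12 small subunit genes had a higher number. The subunit follows the gene name here, although the mammalian counterparts of *mRpS30* and *mRpS18A* sit in the large subunit.

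The libraries held between 28206027 and 31991452 exon-bin counts, with a median of 30152654. The targeted gene *spen* had 0.115 to 0.620 FPKM (read fragments per kilobase, scaled to the size of the library) in the 5 WT libraries and 0.920 to 5.04 FPKM in the 6 SPEN libraries. Its bin E014 of 12094 bases held 393 to 2160 counts in the SPEN libraries, against 6 to 101 in the WT libraries. According to the study, the double-stranded RNA of the transgene derives from that exon, so these counts mark the transgene and do not measure the knockdown. Outside that bin, *spen* counts scaled to depth (CPM) were 1.69 to 7.76 in the WT libraries and 2.89 to 18.0 in the SPEN libraries, so a lower *spen* level was not seen in the RNA of the SPEN libraries. Cytoplasmic ribosomal protein genes made up 67.4 to 82.9% of the summed FPKM, highest in the 2 WT-EB libraries. Of the progenitor markers, *esg* was listed at 4.20 to 100.03 FPKM, whereas *Dl*, the Notch ligand of ISCs, was at 7.43 FPKM or below in every library. The Notch target *E(spl)mbeta-HLH* was at 800, 790 and 803 FPKM in WT-ISC and 722 and 622 FPKM in WT-EB. For *E(spl)malpha-BFM* the levels were 378, 677 and 241 FPKM against 166 and 222 FPKM, and for *E(spl)m3-HLH* the groups overlapped. In FPKM as deposited, these Notch targets therefore did not set WT-EB above WT-ISC.

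Mitochondrial ribosomal protein transcripts were found in every library, at levels well above those of most genes. Of the 73 genes, 72 had at least 1 FPKM in all 11 libraries and 68 had at least 10 FPKM in all of them. The exception was *mRpL53*, which was listed at 0 in every library and had no counting bin. The median of the 72 mean levels was 47.2 FPKM (quartiles 36.4 and 70.5), against 1.21 FPKM over the 11844 genes above 0, and all 72 lay above that value. Large subunit genes had a median of 46.5 FPKM and small subunit genes a median of 47.2 FPKM. For comparison, genes of the respiratory chain and ATP synthase had a median of 264 FPKM and cytoplasmic ribosomal proteins 8344 FPKM. A mixed list of 13 other genes of mitochondrial translation and mitochondrial DNA expression had 4.55 FPKM. The names sought for that list included *tko* and *bonsai* as well as translation factors and tRNA synthetases.

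**Figure D1:**
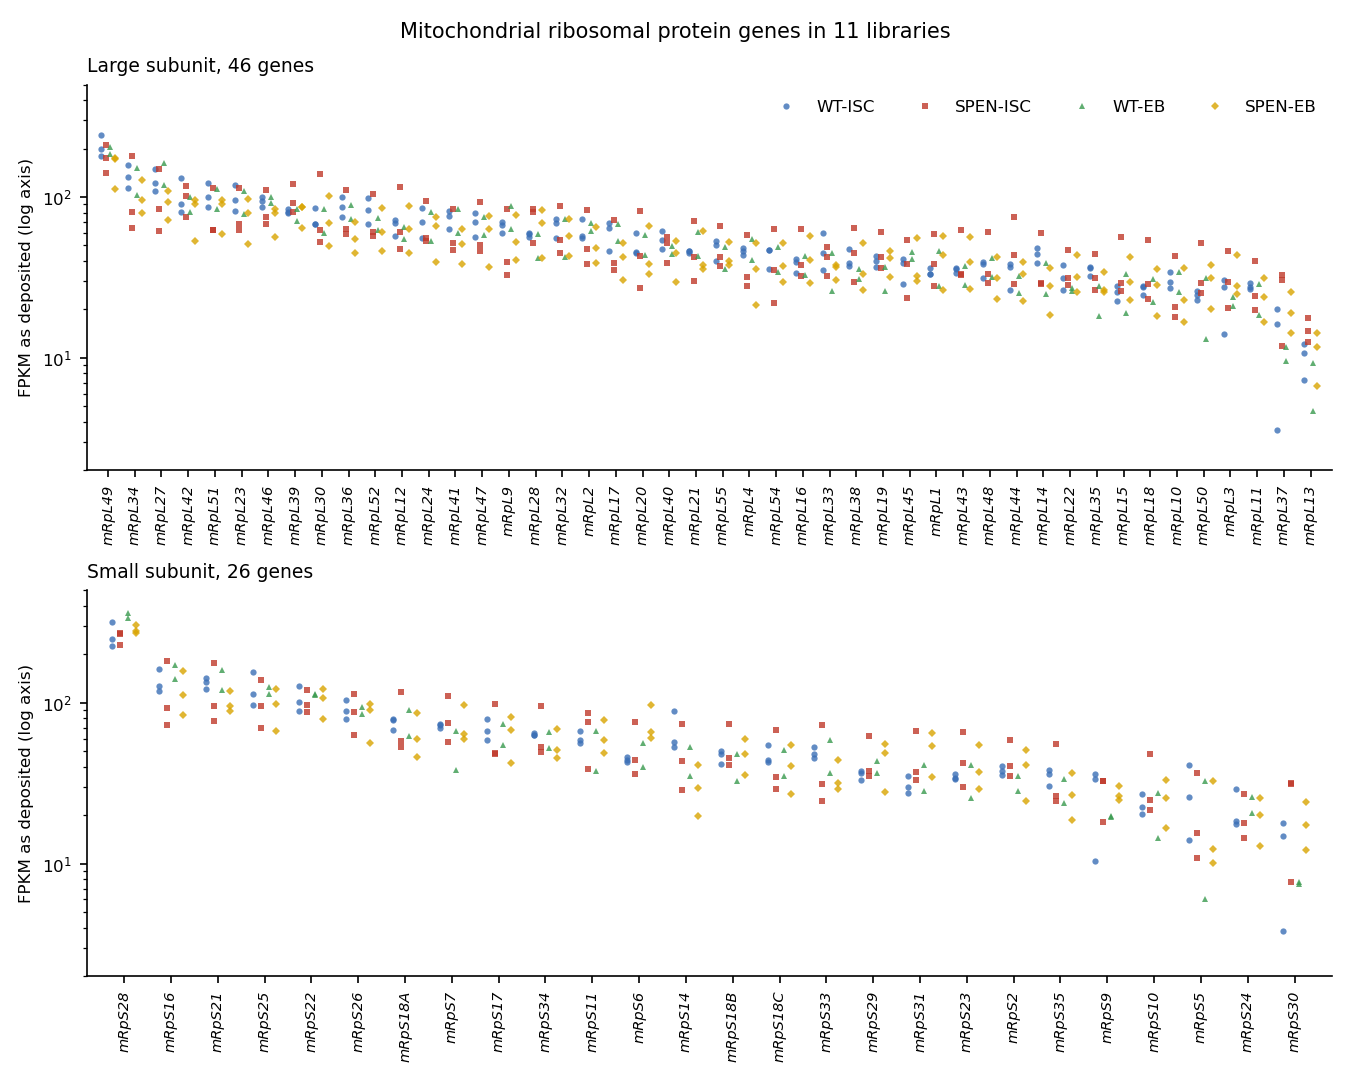
Level of each of the 72 detected genes in each of the 11 libraries, in FPKM as deposited on a log axis, large subunit above and small subunit below, ordered by mean level. Each point is 1 library, coloured and shaped by group; *mRpS28* and *mRpL49* lead the small and large subunit, and *mRpL13*, *mRpS30* and *mRpL37* are lowest.

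The highest transcript was *mRpS28*, which encodes a small subunit protein. It was at 316, 227 and 250.4 FPKM in WT-ISC, 272, 267 and 229.4 FPKM in SPEN-ISC, 338 and 361 FPKM in WT-EB and 272, 303 and 280.1 FPKM in SPEN-EB. Both WT-EB libraries lay above the other 9, and between the highest and the lowest library the level differed by only 1.59-fold. The next was *mRpL49*, a large subunit protein found only in mitochondria, at 112 to 243 FPKM. It was followed by *mRpS16*, which has a bacterial counterpart, at 73.0 to 181 FPKM, *mRpS21* at 77.5 to 177 FPKM and *mRpL34*, one of the smallest proteins of the large subunit, at 64.3 to 179 FPKM. At the other end, *mRpL13* ranged from 4.70 to 17.7 FPKM, *mRpS30* from 3.83 to 31.7 FPKM and *mRpL37* from 3.54 to 32.9 FPKM. Levels of *mRpL12*, whose bacterial counterpart forms the stalk that recruits elongation factors, ranged from 45.0 to 115 FPKM. Those of *mRpS29*, whose human counterpart binds GTP and is known as DAP3, ranged from 27.8 to 62.5 FPKM.

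The order of the genes was similar in all libraries. Across the 72 genes, Spearman's rho between pairs of libraries was 0.818 to 0.975, a description in which all points of a pair share their library. After each library's median over these genes was removed, the standard deviation of log2 level across the 11 libraries had a median of 0.22. Least variable was *mRpS34*, at 0.083. The 5 most variable genes were *mRpS5* at 0.98, *mRpS30* at 0.89, *mRpL37* at 0.85, *mRpS9* at 0.56 and *mRpL13* at 0.47. For *mRpS5*, whose bacterial counterpart acts in decoding accuracy, the levels were 13.95, 26.0 and 40.8 FPKM in WT-ISC, 10.9, 15.4 and 36.4 FPKM in SPEN-ISC, 6.03 and 32.5 FPKM in WT-EB and 32.8, 12.3 and 10.2 FPKM in SPEN-EB. Thus *mRpS5* varied as much within each group as between them, and the ranges of all 4 groups overlapped.

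The median member was at 50.02, 44.8 and 48.0 FPKM in WT-ISC, 71.8, 35.9 and 42.2 FPKM in SPEN-ISC, 37.9 and 53.0 FPKM in WT-EB and 33.2, 42.1 and 57.5 FPKM in SPEN-EB. As deposited, these ranges overlapped between all groups, and WT-ISC was the least variable. FPKM are relative to the total of a library, and the cytoplasmic ribosomal proteins took up more of it in WT-EB. The tests therefore used a scaling of each library (trimmed mean of log ratios) that makes the typical gene equal between libraries. Over all 11 libraries the factors were 0.492 and 0.629 in WT-EB and 0.716 to 1.68 elsewhere. Each comparison below was scaled over its own libraries only, so its scaled values differ by a factor per library from those of all 11. After scaling, the median member was at 69.9, 29.1 and 42.4 in WT-ISC, 51.1, 38.1 and 25.1 in SPEN-ISC, 77.0 and 84.2 in WT-EB and 28.6, 49.7 and 48.6 in SPEN-EB. On that scale both WT-EB libraries lay above the other 9. In bulk libraries, fewer cells of a type and less RNA per cell cannot be told apart.

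**Figure D2:**
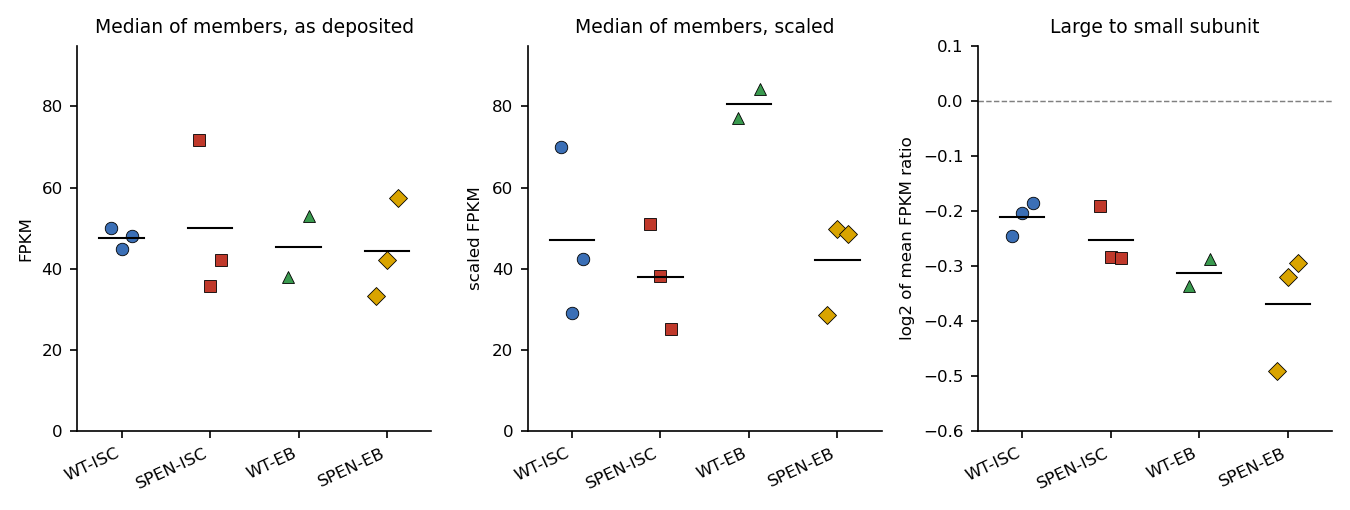
Median FPKM of the 72 detected genes per library as deposited (left) and after scaling (middle), and the log2 ratio of the mean FPKM of large to small subunit genes (right), by group. Points are libraries and bars are group means; the WT-EB libraries stand above the others only after scaling, at 77.0 and 84.2, and the ratio is below 0 in all 11 libraries.

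Whether *spen* RNAi changed these transcripts in EBs was asked first, since the only members past the threshold were found there. Transcripts of 4 of the 72 genes tested were lower in SPEN-EB than in WT-EB, and none was higher (limma on log2(FPKM + 0.5), adjusted p under 0.05 over 5763 genes). Among all genes tested, 6.45% passed in either direction and 2.62% passed as lower, so a share of 4 in 72 was near the background. The 4 genes were *mRpL27*, *mRpL17*, *mRpL36* and *mRpS14*. The fold changes were negative for 70 of the 72, with a median of -0.85 on the log2 scale (all genes -0.054). By limma, 37 of the 72 had an unadjusted p under 0.05. That count was not set against the share of all genes, so it is not read as a result about the members. After scaling, the SPEN-EB libraries all lay below both WT-EB libraries for 57 of the 72 genes, against 27.1% of all genes tested.

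The largest of these changes was that of *mRpL27* (2L, 4458980 to 4459602, minus strand, BDGP5), whose bacterial counterpart reaches into the peptidyl transferase centre. It was at 118 and 162 FPKM in WT-EB and 72.1, 93.3 and 109 FPKM in SPEN-EB, and at 150.2, 109 and 122 FPKM in WT-ISC and 149.6, 61.4 and 83.7 FPKM in SPEN-ISC. The EB groups did not overlap, while SPEN-ISC 1 was as high as the highest WT-ISC library. In EBs the log2 fold change was -1.38 (SE 0.40, limma adjusted p = 0.033), and without scaling it was -0.61.

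For *mRpL17* (3L, 264779 to 265932, plus strand), whose bacterial counterpart lies by the exit of the peptide tunnel, levels were 53.4 and 67.5 FPKM in WT-EB and 30.5, 42.1 and 51.4 FPKM in SPEN-EB. In WT-ISC they were 69.2, 46.4 and 63.7 FPKM, and in SPEN-ISC 71.8, 35.2 and 39.1 FPKM. SPEN-EB was below WT-EB throughout, with a log2 fold change of -1.33 (SE 0.40, limma adjusted p = 0.041). Similarly *mRpL36* (3L, 8117684 to 8118232, minus strand), one of the smallest large subunit proteins, was at 73.4 and 89.0 FPKM in WT-EB and 45.0, 55.2 and 70.4 FPKM in SPEN-EB. All SPEN-EB values of *mRpL36* were again the lower ones, with a log2 fold change of -1.29 (SE 0.40, limma adjusted p = 0.045).

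The small subunit gene that passed, *mRpS14* (X, 19373415 to 19373950, minus strand), encodes a protein of the subunit's head. Its levels were 35.1 and 53.0 FPKM in WT-EB and 19.7, 29.7 and 41.3 FPKM in SPEN-EB, against 89.0, 52.9 and 57.1 FPKM in WT-ISC and 74.3, 43.7 and 28.7 FPKM in SPEN-ISC. As deposited, the EB ranges of *mRpS14* overlapped; after scaling over the 5 EB libraries they were 55.1 and 63.9 in WT-EB and 14.6, 30.2 and 28.9 in SPEN-EB, with no overlap. The log2 fold change was -1.32 (SE 0.41, limma adjusted p = 0.042). Just outside the threshold were *mRpL41*, which had a log2 fold change of -1.27 (adjusted p = 0.051), and *mRpS21*, with -1.24 (adjusted p = 0.053), both by limma. The study's own gene list, from these same libraries, includes *mRpL27*, *mRpL17*, *mRpL36*, *mRpL41* and *mRpS21*. The values of these genes are therefore not independent evidence.

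**Figure D3:**
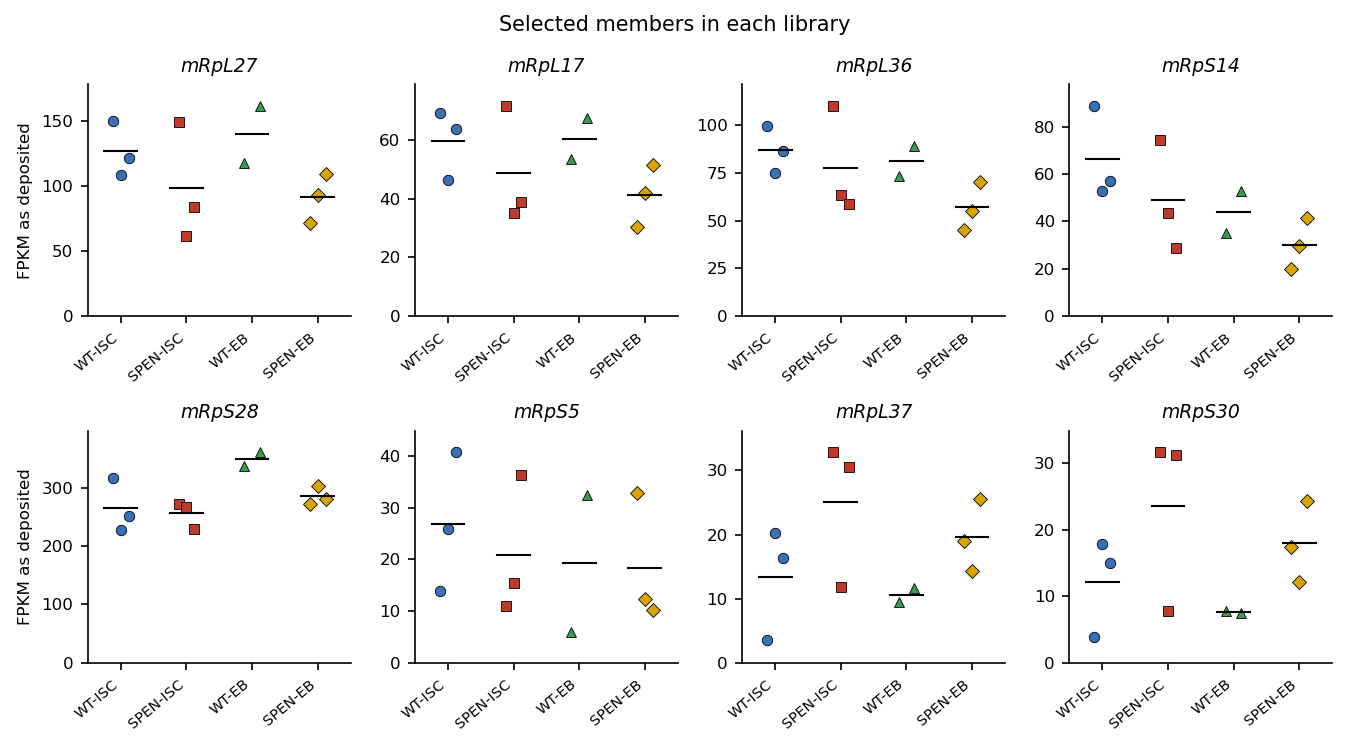
FPKM as deposited of 8 genes in each library, by group, with axes from 0; points are libraries and bars are group means. The 3 SPEN-EB libraries lie below both WT-EB libraries for *mRpL27*, *mRpL17*, *mRpL36* and *mRpS28*, and *mRpL37* and *mRpS30* lie above them in SPEN-EB.

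The only positive log2 fold changes in EBs were those of *mRpL37* and *mRpS30*, neither of which passed the test and whose mammalian counterparts are related proteins that sit side by side in the large subunit. For *mRpS30* (X, 15680086 to 15682072), levels were 7.71 and 7.46 FPKM in WT-EB and 17.4, 12.1 and 24.4 FPKM in SPEN-EB, and 3.83, 17.8 and 14.9 FPKM in WT-ISC and 31.7, 7.74 and 31.2 FPKM in SPEN-ISC. The EB groups of *mRpS30* did not overlap, but its log2 fold change of 0.40 (95% confidence interval -0.36 to 1.16, limma adjusted p = 0.52) did not pass. For *mRpL37* (3R, 6608285 to 6609813), levels were 9.51 and 11.7 FPKM in WT-EB and 19.0, 14.2 and 25.5 FPKM in SPEN-EB, with a scaled log2 fold change of 0.082 (limma adjusted p = 0.91) that turned negative with all 11 libraries in 1 fit and without SPEN-EB 2 or SPEN-EB 3. In ISCs *mRpL37* was at 3.54, 20.2 and 16.3 FPKM in WT-ISC and 32.9, 11.8 and 30.6 FPKM in SPEN-ISC, where the groups overlapped. Both genes were lowest in WT-ISC 1, and both were among the 5 most variable genes named above.

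Large and small subunit genes shared the EB pattern. The median log2 fold change was -0.87 for 46 large and -0.83 for 26 small subunit genes, with 3 and 1 of them past the threshold. Among large subunit genes it was -0.76 for those with a bacterial number and -0.91 for the others, and among small subunit genes -0.54 and -0.89. The other gene lists, chosen for comparison, gave medians of -1.06 for 86 cytoplasmic ribosomal proteins (17 lower, 0 higher) and -0.97 for 28 genes of the respiratory chain and ATP synthase (4 lower). The median was -0.14 for 12 other genes of mitochondrial translation and mitochondrial DNA expression (0 past the threshold, 1 at an unadjusted p under 0.05). Hence the members lay near the cytoplasmic ribosomal proteins and the respiratory chain in this comparison, whereas that mixed list lay closer to the median of all genes.

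These calls depended on scale, on libraries and on tool. Without scaling, no member passed (1 at an unadjusted p under 0.05) and the median log2 fold change of the members was -0.096 while that of all genes moved to 0.66. A factor per library shifts members and all genes nearly alike. That members were below the typical gene on both scales therefore adds no support. Among all genes, the calls were 221 higher and 151 lower with scaling and 928 higher and 39 lower without. In the deposited FPKM the EB libraries did not overlap for 7 members that were lower (3.63% of all genes) and 5 that were higher (47.4% of all genes) in SPEN-EB. With the counts of each gene's bins, edgeR called 0 members and DESeq2 called 8, all lower, while 0.255% and 1.40% of all genes were called lower by these tools. By edgeR, 33 members had an unadjusted p under 0.05, again not set against the share of all genes. Without SPEN-EB 2 the count rose to 32, and the share of all genes called lower rose to 11.6%. Without SPEN-EB 1 the count was 6 (1.40% of all genes), without SPEN-EB 3 it was 1 (1.81%), and without either WT-EB library it was 0 (0.291% and 0.713%).

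Marker transcripts of other cell types and library make-up differed in this comparison. Summed FPKM of 13 enterocyte markers, of which *alphaTry* and *Jon99Ciii* were the most abundant, were 353 and 412 in WT-EB and 3284 to 3361 in SPEN-EB, with 0 to 1 of them at 0, while *pdm2* and *nub* were at 0.385 FPKM or less in all libraries. The enterocyte sums were also high in the ISC libraries, at 2103 to 3826 in WT-ISC and 2286 to 6248 in SPEN-ISC. Summed FPKM of 9 progenitor markers, dominated by 3 Notch target genes of the E(spl) complex, were 1079 and 1055 in WT-EB and 2216 to 2899 in SPEN-EB. In ISCs these progenitor sums were 1183 to 1800 in WT-ISC and 3178 to 5200 in SPEN-ISC. Marker sums here are FPKM as deposited. The scale factors of the EB comparison were 0.637 and 0.829 in WT-EB and 0.984 to 1.43 in SPEN-EB. Divided by them, the progenitor sums of the EB groups overlapped, whereas the enterocyte sums did not. Cytoplasmic ribosomal proteins made up 82.9 and 82.2% of the summed FPKM in WT-EB and 72.0 to 76.4% in SPEN-EB. Summed FPKM of 8 enteroendocrine markers were 7.63 to 23.6 in the EB libraries and 135 to 2764 in the ISC libraries, where *npf* made up most of it. The part of these differences in the levels of the mitochondrial ribosomal protein genes was not tested.

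In ISCs, no mitochondrial ribosomal protein gene passed the threshold between SPEN-ISC and WT-ISC. None of the 72 had an unadjusted p under 0.05 by limma, none was called by edgeR or DESeq2, and 0.110% of the 6346 genes tested were called. The median log2 fold change was -0.29 (all genes 0.044), with 59 of 72 values negative, and -0.30 for large and -0.28 for small subunit genes. Groups did not separate for any member after scaling, against 2.19% of all genes that were lower without overlap. The most negative values were those of *mRpS14*, at -0.74, and *mRpL27*, at -0.70 (95% confidence interval -1.75 to 0.36). The most positive were *mRpL37*, at 0.84 (-0.10 to 1.78, unadjusted p = 0.078), and *mRpS30*, at 0.70. SPEN-ISC 1 had the highest deposited level of the median member, 71.8 FPKM, and SPEN-ISC 2 the lowest of the ISC libraries, 35.9 FPKM, so that the spread within SPEN-ISC exceeded its distance from WT-ISC.

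**Figure D4:**
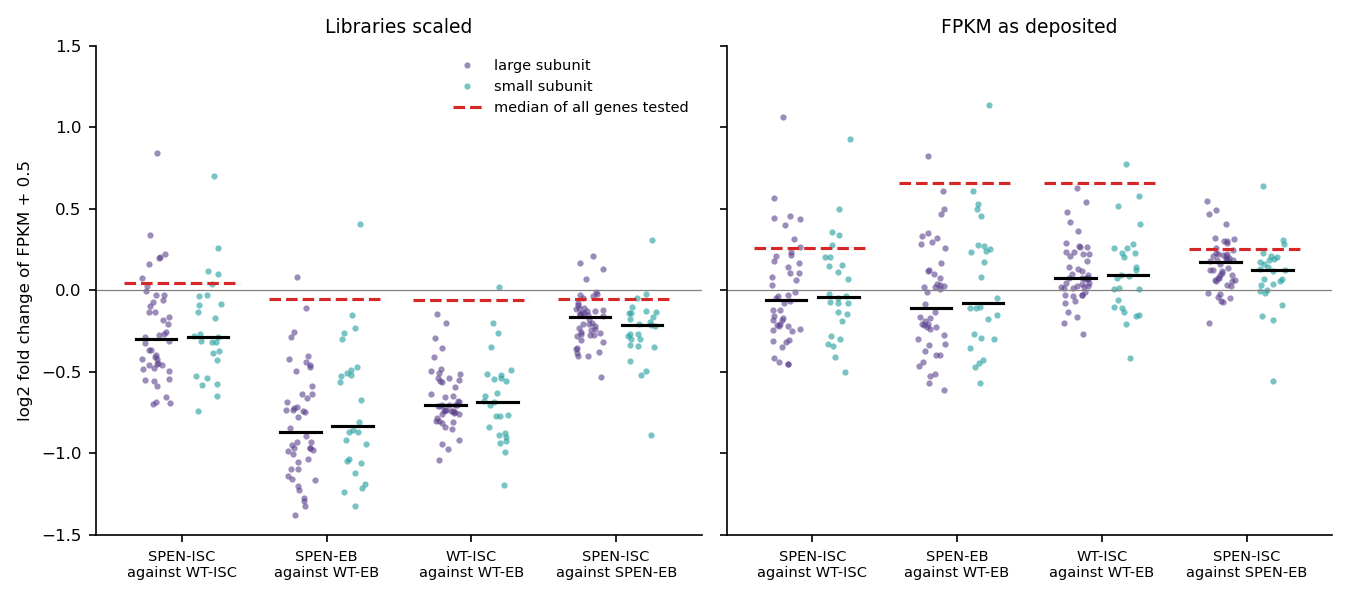
Log2 fold change of each of the 72 genes in the 4 comparisons, with libraries scaled (left) and with FPKM as deposited (right), by subunit; each point is a gene, black bars are medians of a subunit and red dashes are medians of all genes tested. Large and small subunit genes lie together in every comparison, and in EBs both lie below all genes, at medians of -0.87 and -0.83 against -0.054 with scaling; without scaling the median of all members in WT-ISC against WT-EB turns from -0.70 to 0.075 and in SPEN-ISC against SPEN-EB from -0.20 to 0.13.

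The effect of cell type was read from WT-ISC against WT-EB, which shares the 2 WT-EB libraries with the EB comparison above. After scaling, 71 of the 72 fold changes were negative, that is lower in WT-ISC (median on the log2 scale -0.70, all genes -0.060), but none passed the threshold, against 3.29% of 5898 genes. By limma, 2 members had an unadjusted p under 0.05, and edgeR and DESeq2 called none. All 3 WT-ISC libraries lay below both WT-EB libraries for 33 members, and for 20.6% of all genes. Without scaling the median turned to 0.075 (all genes 0.66), so that the direction of the members' own levels was not fixed by these data. Without WT-ISC 1, which had a scale factor of 0.716, 56 members were called lower in WT-ISC, and the share of all genes called lower rose from 0.882% to 21.1%.

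The genes that differed most between WT-ISC and WT-EB were *mRpS28* and *mRpL45*, the latter a large subunit protein whose human counterpart faces the inner membrane at the tunnel exit. After scaling, *mRpS28* was at 368, 132 and 192 in WT-ISC and 542 and 431 in WT-EB. The groups of *mRpS28* did not overlap, and the log2 fold change was -1.20 (95% confidence interval -2.31 to -0.078, limma adjusted p = 0.34). For *mRpL45*, scaled levels were 33.3, 22.6 and 31.6 in WT-ISC and 66.1 and 54.1 in WT-EB, again without overlap, with a log2 fold change of -1.04 (limma adjusted p = 0.29). The only positive value was that of *mRpS5*, at 0.017, and it turned negative under 6 alternatives, among them edgeR and DESeq2.

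Between SPEN-ISC and SPEN-EB, no member passed the threshold, against 0.704% of 6247 genes, and after scaling no member's groups lay apart, against 4.56% of all genes that were lower without overlap (1 member was lower without overlap as deposited). The median log2 fold change was -0.20 (all genes -0.056), and it turned to 0.13 without scaling (all genes 0.25) and to 0.11 without SPEN-ISC 3. One member, *mRpS6*, whose bacterial counterpart binds S18 on the platform of the small subunit, had an unadjusted p under 0.05. Its levels were 76.4, 35.9 and 44.0 FPKM in SPEN-ISC and 60.7, 65.6 and 96.8 FPKM in SPEN-EB, and 46.2, 44.4 and 42.7 FPKM in WT-ISC. SPEN-EB held the highest single value of *mRpS6*, but SPEN-ISC 1 lay within its range, and the log2 fold change of -0.89 had a limma adjusted p of 0.78. By edgeR and DESeq2 no member was called. The next most negative was *mRpL9*, at -0.53, and the most positive were *mRpS14*, at 0.31, and *mRpL44*, at 0.21, whose human counterpart has a fold of the RNase III family.

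Whether *spen* RNAi acted differently in the cell types was tested by the interaction term over all 11 libraries. No member passed, and 0% of the 6791 genes tested passed. No member had an unadjusted p under 0.05 (115 of all genes did), and edgeR and DESeq2 called none. The term was positive for all 72 genes, with a median of 0.68 (all genes 0.17), but without scaling the median was 0.046 and 29 genes turned negative. It was largest for *mRpL44*, at 0.95 (SE 0.57, limma adjusted p = 0.97), and *mRpL36*, at 0.95 (SE 0.66). The 4 calls in EBs were therefore not shown to be specific to EBs.

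The ratio of large to small subunit levels was compared in each library. The log2 ratio of the mean FPKM was -0.25, -0.20 and -0.19 in WT-ISC, -0.19, -0.28 and -0.29 in SPEN-ISC, -0.34 and -0.29 in WT-EB and -0.49, -0.32 and -0.29 in SPEN-EB. Small subunit genes had the higher mean in all 11 libraries. Group means were -0.21 ± 0.031 (SD, n = 3), -0.25 ± 0.055 (n = 3), -0.31 ± 0.035 (n = 2) and -0.37 ± 0.107 (n = 3) in that order, and the ISC and EB libraries did not overlap, although by a small margin, the nearest being -0.286 in SPEN-ISC and -0.287 in WT-EB. No test was made of this score. The ratio rested on few genes, since without the 3 highest members it was -0.032, -0.080, -0.017 and -0.14 in the same order. With medians in place of means it was -0.072, -0.13, 0.010 and -0.18, where the WT-EB value averaged 1 library with the higher median in large subunit genes (WT-EB 1, 41.1 against 36.5 FPKM) and 1 with the lower (WT-EB 3, 49.4 against 54.8 FPKM).

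Transcript length moved with the fold changes of the EB and ISC comparisons. Summed exon-bin length of the 72 genes ranged from 282 bases in *mRpL34* to 1823 bases in *mRpS30*, with a median of 757 bases. Across genes, which are not independent and share their libraries, Spearman's rho between length and log2 fold change was 0.49 in ISCs and 0.43 in EBs over the 72 members and 0.27 and 0.46 over all genes tested. In EBs the 28 genes under 700 bases had a median log2 fold change of -1.03 and the 22 genes of at least 1000 bases one of -0.64. In ISCs these medians were -0.45 and -0.044. For WT-ISC against WT-EB rho was -0.052 over members and 0.35 over all genes. Of the genes called in EBs, *mRpL27*, *mRpL36* and *mRpS14* have 476 to 511 bases and *mRpL17* has 1092, and the part of length in these calls was not tested.

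Levels of some genes rest on shared loci or on the counting. Bins of 38 of the 72 genes overlapped those of a gene on the opposite strand, such as *arm* at *mRpL16* and *frtz* at *mRpL48*, and the median log2 fold change in EBs was -0.92 for these and -0.73 for the other 34. The library kit marks strand, and of the called genes only *mRpL17* had such an overlap, with *CG34263*. Deposited FPKM fell below the density of counts over the bins for *mRpS24*, with a log2 ratio of -2.01, and for *mRpL13*, with -0.93. Bins can hold reads that the gene count leaves out, so the low FPKM of *mRpL13* and *mRpS24* are uncertain as levels.

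Exon usage was compared through each bin's share of its gene's counts, so that the level of the gene cancels. Of the 209 bins, 190 were tested in 3 comparisons and 189 in WT-ISC against WT-EB, since the others had too few counts or were the only bin of their gene, as in 7 genes. None passed in any comparison, against 0.0387% of 28396 bins in SPEN-ISC against WT-ISC, 0.0307% of 26086 bins in SPEN-EB against WT-EB, 0.0110% of 27265 bins in WT-ISC against WT-EB and 0.00360% of 27809 bins in SPEN-ISC against SPEN-EB. Member bins with an unadjusted p under 0.05 by limma numbered 5, 14, 5 and 1 in that order, and limma's diffSplice and edgeR's diffSpliceDGE called none in any comparison, with none at an unadjusted p under 0.05. Since so few of all bins were called, the counts of 0 among member bins say little about whether usage changed. The median size of the log2 change in usage was 0.066, 0.125, 0.065 and 0.058, below the 0.13, 0.21, 0.20 and 0.13 of all bins tested. Member bins were richer in counts, which lowers counting noise. In EBs a filter at 30 counts kept 183 of 190 member bins but 18272 of 26086 of all bins. The part of counts in the smaller changes was not tested. Large and small subunit bins differed little in the size of the change, at 0.11 and 0.14 in EBs.

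The bin with the smallest p in EBs was the last one of *mRpL16* (E004, X, 1785309 to 1785515, plus strand, 207 bases, in 1 of 2 annotated transcripts), whose protein has a bacterial counterpart near the A site. It held 8.98 and 7.81% of the gene's counts in WT-EB and 14.2, 11.7 and 14.5% in SPEN-EB, and 10.4, 17.5 and 15.7% in WT-ISC and 14.8, 15.6 and 20.1% in SPEN-ISC. WT-EB had the lowest shares of all groups, without overlap with any. The study reported differential exon usage of *mRpL16* in *spen* knockdown EBs by DEXSeq from these same libraries, so these shares are not independent evidence. The limma test of usage made here called only 8 of 26086 bins in EBs. The log2 change in usage of *mRpL16* E004 in EBs was 0.79 (SE 0.17, unadjusted p = 0.0016, limma adjusted p = 0.47), and between WT-ISC and WT-EB it was 0.91 (SE 0.29, limma adjusted p = 0.94). Without WT-ISC 1, the library of lowest share in its group, the latter passed (1.12, limma adjusted p = 0.0015), as 1 of 189 member bins, while calls over all bins rose from 3 to 232, or 0.865%.

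In ISCs the smallest p was that of *mRpL2*, whose bacterial counterpart helps to form the peptidyl transferase centre. Its first bin (E001, 3L, 11113947 to 11114506, plus strand) held 66.5, 67.5 and 67.6% in WT-ISC, 64.0, 64.0 and 61.7% in SPEN-ISC, 68.2 and 66.6% in WT-EB and 65.9, 64.4 and 59.5% in SPEN-EB. All 5 WT libraries lay above all 6 SPEN libraries, but the lowest WT value was close to the highest SPEN value. The log2 change in usage of *mRpL2* E001 was -0.23 in ISCs (SE 0.07, unadjusted p = 0.0083, limma adjusted p = 0.95) and -0.31 in EBs (SE 0.12, adjusted p = 0.95). The gene has only 2 bins, so E002 showed the same change with the sign turned. Coverage of transcript ends differed between libraries. The median log2 ratio of read density in the last to the first bin, over 38 members, was -1.34 in SPEN-EB 3. It was -1.83 to -1.59 in the other EB libraries, -1.77 to -1.53 in WT-ISC and -1.65 to -1.48 in SPEN-ISC. The part of this balance in the shares of first and last bins, here and in the other bins named, was not tested.

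Other bins with a small p differed by less. *mRpS16* E001 (2R, 10060491 to 10060808) held 21.5 and 20.9% in WT-EB and 22.4, 24.6 and 28.0% in SPEN-EB, a log2 change of 0.36 (limma adjusted p = 0.88). For *mRpL1*, whose bacterial counterpart forms the stalk near the E site, E001 held 27.3, 27.8 and 27.2% in WT-ISC and 24.1 and 24.5% in WT-EB, without overlap (log2 change 0.24, limma adjusted p = 0.94). Between SPEN-ISC and SPEN-EB the smallest p values were those of *mRpL23* E004, a bin of 31 bases with 0.636 to 2.51% of its gene's counts, and of *mRpL32* E001, with 27.8 to 35.4%, and neither passed (both adjusted p = 1.00, limma).

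**Figure D5:**
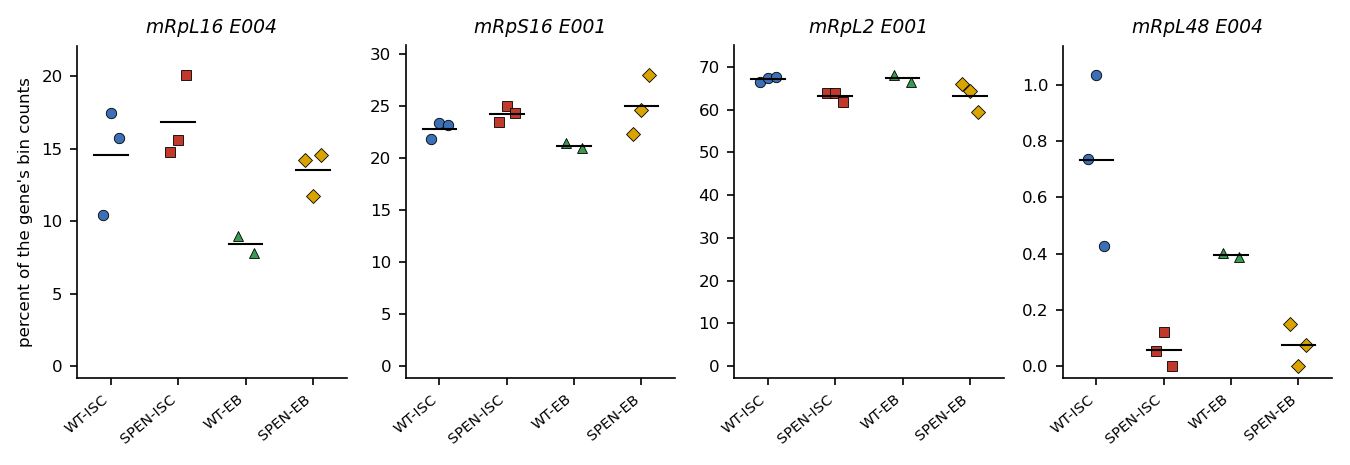
Share of a gene's exon-bin counts in 4 bins, in percent, per library and by group; points are libraries and bars are group means. *mRpL16* E004 is lowest in WT-EB, *mRpL2* E001 is lower in all 6 SPEN libraries than in the 5 WT libraries, and *mRpL48* E004 rests on 0 to 12 counts per library.

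The bin *mRpL48* E004 (2L, 1711366 to 1711465, plus strand, 100 bases, in 1 of 2 transcripts) had too few counts for the test. It is described because the study had listed it from these same libraries, so its values are not independent evidence. It held 7, 12 and 5 counts in WT-ISC, 1, 1 and 0 in SPEN-ISC, 4 and 5 in WT-EB and 1, 0 and 1 in SPEN-EB. Counts were thus lower in every SPEN library than in every WT library. Summed over libraries, the bin took 0.731% of WT-ISC and 0.0537% of SPEN-ISC counts of the gene, a ratio of 13.6 (95% confidence interval 3.38 to 119), and 0.394% in WT-EB and 0.0673% in SPEN-EB, a ratio of 5.85 (1.21 to 55.6). The intervals are exact and cover counting error only. With bins of at least 1 count admitted to the fit, the log2 change of *mRpL48* E004 in ISCs was -2.97 (unadjusted p = 0.010, limma adjusted p = 1.00).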

How the data were processed

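RNA of 11 sorted libraries was read as paired ends. The authors aligned with TopHat 2.0.6 to the r5.54 genome and deposited FPKM per gene (BDGP5 annotation) and raw counts per DEXSeq exon bin. The study states oligo-dT capture, whereas the labels also name a Ribo-Zero kit. Group means (8 columns), 16 further per-library count columns (15 equal to the bin table and 1, for WT-ISC 3, not equal in 70545 bins) and the authors' tables of fold changes and p-values were not used. DEXSeq, the study's test of usage, was not used here. Bin positions came from the deposited annotation. Libraries were grouped by their labels. The labels call the libraries biological replicates without saying how they were kept apart, so p-values measure the spread between these libraries.

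Levels were tested on log2(FPKM + 0.5) with limma 3.58.1 (trend, robust), using only the libraries compared. The scaling was a trimmed mean of log ratios (30% of ratios and 5% of levels trimmed). A gene was tested if the number of libraries with at least 1 FPKM reached the size of the smaller group. P-values were Benjamini-Hochberg adjusted over all genes tested, with a threshold of 0.05. Usage was tested by limma on the log2 ratio of a bin's counts to the other counts of its gene (offset 0.5; at least 10 counts for both and 15 in total), adjusted over all bins. The alternatives were edgeR 4.0.16 and DESeq2 1.42.0 on counts summed over a gene's bins, other scalings, pseudocounts and filters, a replicate block and leaving out each library. Scripts were tested on simulated data. With 3 against 3 libraries an exact permutation test of a single value cannot go below p = 0.1, and with 2 against 3 not below 0.2, so none was run.

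The members, the comparison lists and the markers were chosen with earlier results of these data known. Genes named were those past the threshold (8 at most), the 2 with the largest change in each direction per comparison, the 5 highest and 3 lowest by mean FPKM, those the study lists, *mRpL12* and *mRpS29* for their roles, and the 2 bins with the smallest p per comparison. Of those the study lists, *mRpS33* is not described here. The most variable genes, *mRpS34* and *mRpS24* were named after their values were seen. Deposited FPKM give no depth per value, and depth is taken from the bin counts. Sequences and mitochondrially encoded transcripts were not analysed here.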

Additional observations from a re-analysis of the deposited data

How the results depend on the processing

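Of the 4 members called lower in SPEN-EB, the count became 0 without scaling, without a filter on FPKM, with edgeR and with all 11 libraries in 1 fit, 13 with a filter at 5 FPKM, 8 with DESeq2 and 0 to 32 when 1 library was left out. With the filter at 5 FPKM, the share of all genes called lower also rose, from 2.62% to 6.45% (233 of 3611). The median log2 fold change in EBs was -0.096 without scaling. For WT-ISC against WT-EB, the count of 0 was 0 to 56 when 1 library was left out, the count of bins 0 to 1, and the median turned to 0.075 without scaling. For SPEN-ISC against SPEN-EB the median turned to 0.13 without scaling and to 0.11 without SPEN-ISC replicate 3 (range -0.46 to 0.11 with 1 library left out). The cause was not tested.

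With the replicate number as a block, 19 members were called lower in SPEN-EB and no other count of members or member bins changed. In that comparison the block also raised the genes called lower from 151 to 346 of all 5763 and the bins called from 8 to 97, and in WT-ISC against WT-EB the bins called from 3 to 91. Of 15 pairs of libraries with the same number, only 4 had correlated deviations over 0.1 (r from -0.63 to 0.63). Pairs with different numbers ranged from -0.71 (SPEN-ISC 3 and SPEN-EB 2) to 0.70 (SPEN-ISC 1 and SPEN-EB 3). Deviations from means of 2 or 3 libraries are tied to each other, so these values cannot decide which libraries are paired. The study sorted ISCs and EBs at the same time, whereas the tests, apart from the block, treated all libraries as independent.

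The log2 ratio of large to small subunit moved with medians to -0.072 in WT-ISC, -0.13 in SPEN-ISC, 0.010 in WT-EB and -0.18 in SPEN-EB, and to -0.032, -0.080, -0.017 and -0.14 without the 3 highest members. With mean logs WT-EB was at -0.20, and with bin counts per kilobase WT-ISC was at -0.24.

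Without scaling, the fold changes of 52 members turned sign in WT-ISC against WT-EB, 53 in SPEN-ISC against SPEN-EB, 31 in EBs, 17 in ISCs and 29 in the interaction. Under other alternatives these named genes turned sign. *mRpL37* in EBs (0.082) was -0.065 in 1 fit of all libraries and -0.023 to 0.14 with 1 library left out, below 0 without SPEN-EB replicate 2 or 3. *mRpS5* between WT-ISC and WT-EB (0.017) was -0.064 with median of ratios scaling, -0.19 with edgeR, -0.33 with DESeq2, -0.15 in 1 fit of all libraries, -1.10 to 0.88 with 1 library left out, below 0 without WT-ISC replicate 3 or WT-EB replicate 1. Between SPEN-ISC and SPEN-EB, *mRpL44* (0.21) was -0.088 to 0.45 with 1 library left out, below 0 without the first replicate of either group, and *mRpS14* (0.31) was -0.042 to 0.84, below 0 without SPEN-EB replicate 1. Of 206 values of whole comparisons under alternatives, 179 were similar, 23 moved and 4 turned sign. Of 394 values of named genes or bins, 352 kept direction and side of the threshold, 27 lost and 3 gained the call, and 12 turned sign.

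Groups of 2 and 3 libraries limit all comparisons. Tests of bins by diffSplice and diffSpliceDGE had little power on simulated data, whose spread was set in advance and not estimated from these libraries. Their counts of 0 are therefore not read as a sign of stability.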
